A study of Mus musculus with 4 samples.

Results

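Some rows of a mouse count table carry a sequence accession in place of a gene symbol. The 162 rows described here are those whose name is 1 or 2 capital letters followed by 5 or 6 digits and which held at least 500 raw counts in each of the 2 input libraries, out of 32531 named rows and 8381 accession-named rows. The rows were chosen by their input counts, and the contrast of IP against input reads those counts. The fold changes below are therefore a description. Calls of members come from the fit over all rows, and nothing is read from them. The libraries come from cerebral cortex of adult Cbln1-TRAP NIDA030 mice, in which Cbln1 regulatory sequence drives Rpl10a, a ribosomal protein, fused to EGFP. All libraries carry that transgene. The IP group holds 2 libraries (IP 2 and IP 4) of RNA bound to ribosomes that an anti-EGFP antibody captured, and the input group holds 2 libraries (input 2 and input 4) of total RNA of the cortex homogenate. The labels are silent on whether IP 2 and IP 4, or input 2 and input 4, came from different animals or pools. What the spread given here reflects was not tested. Xist, a noncoding RNA, held 0 and 20 counts in IP 2 and IP 4, against 2 and 132 counts in input 2 and input 4. In that row number 4 was higher than number 2 in both groups. Lane 1 carried the IP libraries and lane 2 the input libraries, which means that group and lane cannot be told apart.

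In translating ribosome affinity purification, mRNAs on tagged cytosolic ribosomes are captured with them, whereas RNAs that are not translated are carried along only in part. Total RNA of a homogenate holds nuclear transcripts and RNAs of all cells of the tissue as well. An accession as a row name means that the row carries the name of a sequence database entry, which can be a cloned cDNA, an expressed sequence tag (a short read of a cDNA end) or another deposited sequence. Names that start with AK are mostly full-length mouse cDNAs of the RIKEN collection, and names that start with BC are clones of the Mammalian Gene Collection. Names that start with AI, AU or AW are expressed sequence tags, some of which became official gene symbols. Such rows can be coding genes without a descriptive name, noncoding RNAs, or pieces of other transcripts.

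By symbol or synonym, 32 of the 162 rows matched a gene of RefSeq or GENCODE, 24 of them by RefSeq symbol, 6 by RefSeq synonym and 2 by GENCODE symbol, and 130 (80.2%) matched none. Of the matched rows, 27 are annotated as protein-coding and 5 as noncoding RNA or pseudogene, so a noncoding nature is recorded for few of them. The names fall into 12 kinds by their letters, with 87 rows starting with AK, 30 with BC, 13 with DQ and 11 with AB. None of the 37 mitochondrially encoded genes of RefSeq appears by its symbol among the rows of the files. Whether an unmatched accession holds such a transcript is not given in the sources used here.

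One matched member is itself a short RNA whose sequence is on record, shown because it had the lowest fold change among the annotated members. DQ267101 is a small nucleolar RNA, a class that guides chemical modification of other RNAs, at chr12:109651424-109651496 (GRCm38, plus strand), within the bounds of the noncoding gene Rian and overlapping its exons. A second member, AI854517, is the lncRNA Mir9-3hg on chromosome 7, the host transcript of a copy of miR-9, a microRNA of neural development. Both mature arms are shown to identify that microRNA, not the reads counted in the row. In the first sequence the capitals mark the letters TGATGA (the C box of this class, bases 9 to 14) and CTGA (the D box, bases 63 to 66), each found once on the transcript strand. Of the 1507 small nucleolar RNA transcripts of GENCODE, 25.2% hold both sets of letters. In the microRNAs the capitals mark the seed, bases 2 to 8.
DQ267101: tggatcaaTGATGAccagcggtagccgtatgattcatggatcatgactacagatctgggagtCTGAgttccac
mmu-miR-9-5p: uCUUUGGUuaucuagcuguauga
mmu-miR-9-3p: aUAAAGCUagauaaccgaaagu
The first is from GENCODE vM21 and the microRNAs are from RefSeq on GRCm38.p6. The mature microRNAs were not measured in these files.

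As a share of all gene counts, the members took up 0.713% of IP 2 and 0.762% of IP 4, against 3.04% of input 2 and 2.90% of input 4. A single row, AK140265, made up 3.22% and 8.50% of the member counts in IP 2 and IP 4, and 56.9% and 56.3% in input 2 and input 4. Without AK140265, the members held 0.690% and 0.697% of gene counts in the IP libraries and 1.31% and 1.27% in the input libraries. The 145 members with log2 fold changes above -3 held 0.681% and 0.684% in IP 2 and IP 4, against 0.867% and 0.852% in input 2 and input 4. These shares are of counts that were not divided by length, so they do not rank the rows by number of molecules.

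**Figure D1:**
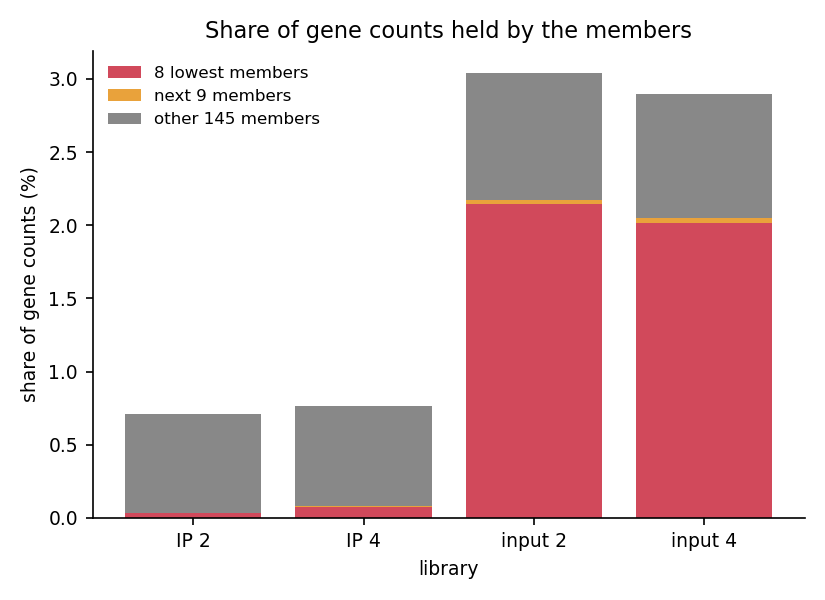
Share of the gene counts of each library (percent, vertical axis) held by the 162 members, stacked as the 8 rows with the lowest fold changes, the next 9 and the other 145. The members make up 0.713% and 0.762% of IP 2 and IP 4 and 3.04% and 2.90% of input 2 and input 4, and most of the input share is the 8 lowest rows.

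Over all members, the median log2 fold change of IP over input was -0.41, with a range of -5.43 to 1.60. Of the members, 88 were called lower and 21 higher in IP, and 53 were not called (adjusted p under 0.05 over 16600 rows by Benjamini-Hochberg, from the quasi-likelihood test of edgeR). Of all rows tested, 22.4% were called lower and 23.4% higher, with a median of -0.04. Tested against a log2 fold change of 1 instead of 0, 29 members were called lower and 1 higher, with 4.07% lower and 1.04% higher of all rows as the background. Because the rule reads the input counts, nothing is read from the member calls. Both IP libraries lay below both input libraries in 98 members and above them in 30, and the groups overlapped in 34. Over all rows tested, 37.8% had both IP libraries below and 35.3% had both above. The 8101 rows with other names that also held 500 counts in each input library passed the same count rule, and 21.6% of them were called lower and 36.8% higher, with a median of 0.12. A log2 fold change below -1 was estimated for 36 members (22.2%) and for 3.02% of those rows. The 205 rows named after RIKEN clones (names ending in Rik) had a median of -0.17 and the 17 rows of predicted gene models (names starting with Gm) a median of -0.52. With library sizes alone as the scaling, the median of all rows moved to -0.29, and 10 members were called higher and 110 lower, beside 13.0% higher and 35.6% lower of all rows.

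**Figure D2:**
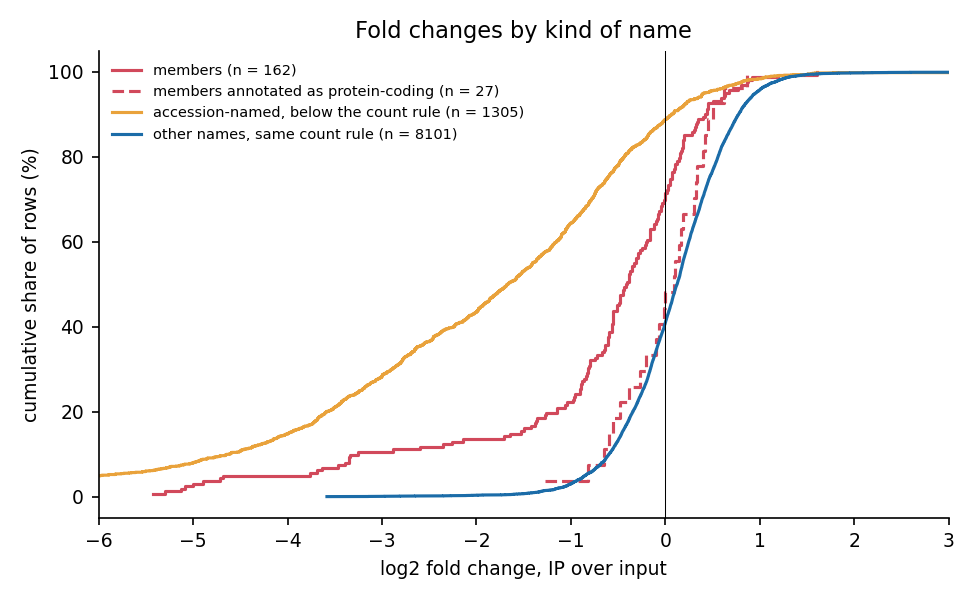
Cumulative share of rows (percent) by log2 fold change of IP over input, for the members, the members annotated as protein-coding, the accession-named rows below the count rule and the rows with other names that pass the same count rule. The horizontal axis is limited to -6 to 3. The median of the members was -0.41, that of the protein-coding members 0.09 and that of the rows with other names 0.12.

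The median of the members lay below that of the rows with other names in each range of counts. By the smaller of the input counts, the medians were -0.39 for 66 members with 500 to 999 counts, -0.42 for 39 with 1000 to 1999, -0.47 for 40 with 2000 to 4999 and -0.31 for 17 with at least 5000. The rows with other names had medians of 0.11, 0.13, 0.12 and 0.12 in the same ranges. The accession-named rows below the count rule numbered 8219. Of these, 5351 held no count in any library and 1305 were tested, with a median of -1.67. A rule that reads all libraries alike, a mean of at least 500 counts over the 4 libraries, took 146 rows with a median of -0.29, of which 70 (47.9%) were called lower and 22 (15.1%) higher, beside 22.4% and 23.4% of all rows.

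The lowest 8 members were separated by a gap from the other members, a grouping made after the values were seen. Their log2 fold changes ran from -5.43 to -4.68, the next member lay at -3.77, and no row with another name under the same count rule lay below -4. Of the 1305 accession-named rows tested below the count rule, 193 lay below -4, and 268 of all rows tested did. None of the 8 matched an annotated gene. AK140265 stood at 250 and 713 CPM (counts scaled to a common library size after TMM normalisation) in IP 2 and IP 4, against 15753 and 14973 CPM in input 2 and input 4. It was 31.9-fold lower in IP, with a standard error (SE) of 0.30 on the log2 scale. Both IP libraries lay far below both input libraries, and IP 4 held more than IP 2. The lowest member of all, DQ539915, stood at 30.2 and 46.1 CPM in IP 2 and IP 4, against 1589 and 1697 CPM in input 2 and input 4, 43.0-fold lower in IP (SE 0.15 on the log2 scale). X57780 had 13.2 and 27.1 CPM in IP 2 and IP 4, against 856 and 733 CPM in input 2 and input 4, 39.3-fold lower in IP (SE 0.22).

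In the other 5 of these rows, IP 4 also exceeded IP 2. AK163440 held 79 and 176 counts in IP 2 and IP 4, against 5844 and 3881 counts in input 2 and input 4, and was 35.1-fold lower in IP. GU332589 held 218 and 550 counts in IP 2 and IP 4, against 14502 and 13505 counts in input 2 and input 4, and was 33.9-fold lower. BC071253 held 108 and 213 counts in IP 2 and IP 4, against 5739 and 4619 counts in input 2 and input 4, and was 29.7-fold lower. In these 3 rows both IP libraries lay far below the input libraries. AK018753 stood at 14.3 and 21.0 CPM in IP 2 and IP 4, against 501 and 430 CPM in input 2 and input 4, 26.3-fold lower. AK142750 stood at 6.76 and 9.93 CPM in IP 2 and IP 4, against 240 and 191 CPM in input 2 and input 4, 25.7-fold lower. Together the 8 rows took up 0.0298% of IP 2 and 0.0762% of IP 4 by gene counts, against 2.14% and 2.02% in input 2 and input 4.

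**Figure D3:**
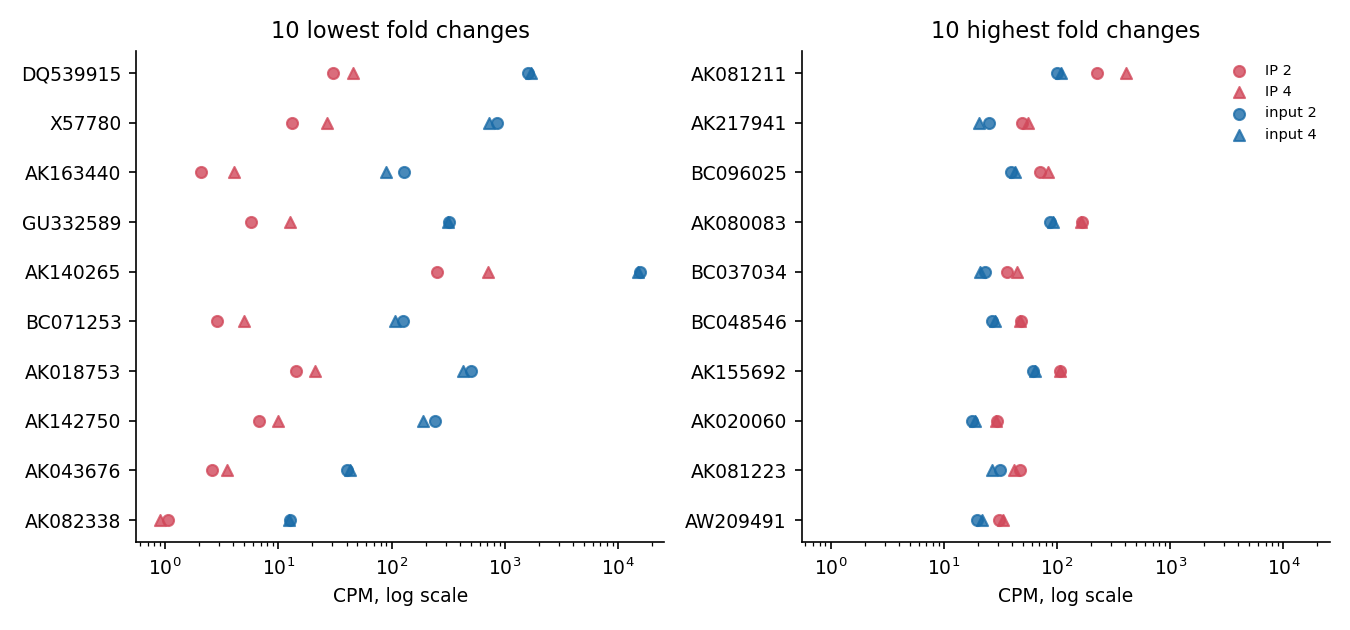
Abundance in each library (CPM, log axis) of the 10 members with the lowest and the 10 with the highest log2 fold changes, with IP libraries in red and input libraries in blue, number 2 as circles and number 4 as triangles. AK140265 lies at 250 and 713 CPM in IP and 15753 and 14973 CPM in input, and AK081211 at 224 and 406 CPM in IP and 99.9 and 108 CPM in input.

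The same 8 rows also shared a difference between the IP libraries, which the count rule did not read. It was not confined to them. The rows with other names that lay below -3, given further on, were also higher in IP 4 than in IP 2. All 8 were higher in IP 4 than in IP 2, with log2 ratios of 0.55 to 1.51 and a median of 0.87, whereas input 4 over input 2 ranged from -0.52 to 0.10. Over the 145 members with log2 fold changes above -3, the median log2 ratio of IP 4 over IP 2 was 0.01, with 73 of them above 0. Their ratios ran from -0.95 to 0.95. AK005187, at 0.95, AK045970, at 0.82, BC062895, at 0.95, AI464131, at 0.62, and AK081211, at 0.86, lay inside the range of the 8. They were named after their values were seen. The 3 members with a ratio past 2-fold between the IP libraries were AK140265, GU332589 and X57780, all among the 8, and 5 of the 8101 rows with other names were past 2-fold. Within replicate number 2 the log2 fold changes of the 8 ran from -6.02 to -5.12, and within number 4 from -5.20 to -4.26. Without IP 4, the log2 fold change was -5.93 for AK140265, -5.77 for GU332589 and -5.90 for X57780. Without IP 2, it was -4.41, -4.61 and -4.86 in the same order. Among 26 annotated noncoding RNAs, 18 were higher in IP 4 than in IP 2 and 8 were lower, and they summed to 2202 and 3282 CPM in IP 2 and IP 4, against 25435 and 24148 CPM in input 2 and input 4. Most of that sum is Malat1, and without it the list summed to 1004 and 1161 CPM in IP 2 and IP 4, against 5122 and 4676 CPM in input 2 and input 4. Their part in the difference was not tested.

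**Figure D4:**
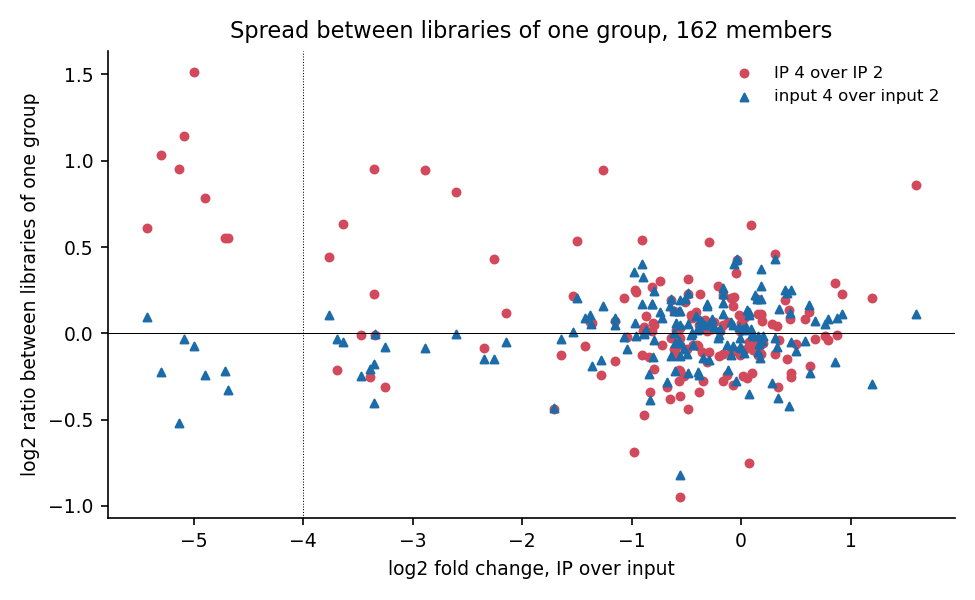
Log2 ratio between the libraries of one group (vertical axis) against the log2 fold change of IP over input (horizontal axis) for the 162 members, with IP 4 over IP 2 as red circles and input 4 over input 2 as blue triangles. Left of the dotted line at -4, all 8 members lie above 0 for IP, from 0.55 to 1.51, whereas their input ratios run from -0.52 to 0.10.

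Above the gap, 9 further unmatched members had log2 fold changes from -3.77 to -3.26. They began with AK043676, which held 98 and 152 counts in IP 2 and IP 4, against 1823 and 1870 counts in input 2 and input 4, 13.6-fold lower in IP. AK082338 held 40 and 39 counts in IP 2 and IP 4, against 579 and 538 counts in input 2 and input 4, 12.9-fold lower. The rest were AK134750, AK039603, AK044468, AK028782, AK017280, AK164313 and BC147260, with folds from 12.4 to 9.55. Unlike the 8 lowest rows, these had no common order of the IP libraries, with IP 4 above IP 2 in 4 of 9 and a median log2 ratio of -0.01. The log2 ratio of IP 4 over IP 2 was inside the range of the 8 lowest rows for AK134750, at 0.63, and for AK028782, at 0.95. AK028782 stood at 1.55 and 3.05 CPM in IP 2 and IP 4, against 27.0 and 20.4 CPM in input 2 and input 4. Under the same count rule, 6 rows with other names lay below -3, namely Malat1, A930011O12Rik, 9530059O14Rik, 4930447C04Rik, Meg3 and Kcnq1ot1, the lowest of them Malat1 at -3.58. IP 2 and IP 4 held 45533 and 91695 counts of Malat1, 418 and 808 of A930011O12Rik, and 72 and 147 of 9530059O14Rik. They held 71 and 95 counts of 4930447C04Rik, 8956 and 13527 of Meg3, and 128 and 162 of Kcnq1ot1. Each of these rows was higher in IP 4 than in IP 2, also after scaling to library size. Those names were taken after their values were seen.

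At the other end, 2 members were more than 2-fold higher in IP. AK081211 held 8500 and 17554 counts in IP 2 and IP 4, against 4539 and 4668 counts in input 2 and input 4. It was 3.03-fold higher in IP (log2 fold change 1.60, SE 0.17), with no overlap of the groups. IP 4 lay well above IP 2, and the log2 fold change was 1.98 without IP 2 and 1.12 without IP 4. AK217941 stood at 48.6 and 56.0 CPM in IP 2 and IP 4, against 25.2 and 20.6 CPM in input 2 and input 4, 2.29-fold higher in IP (SE 0.13). Neither name matched an annotated gene.

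The next members in that order differed less, with close libraries. BC096025 had a mean of 76.9 ± 8.53 CPM in the IP libraries and 40.7 ± 2.19 CPM in the input libraries (SD over n = 2 each), 1.89-fold higher. AK080083 averaged 164 ± 0.949 CPM in IP and 89.3 ± 3.82 CPM in input, 1.84-fold higher. BC037034, annotated by GENCODE as protein-coding on chromosome 5, averaged 40.0 ± 5.73 CPM in IP and 22.0 ± 1.79 CPM in input, 1.82-fold higher. In each of these 3 rows the IP libraries did not overlap the input libraries. BC048546, AK155692, AK020060, AK081223 and AW209491 completed the highest 10 members, with folds of 1.74 to 1.53, and only AW209491 among these 5 matched an annotated gene.

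**Figure D5:**
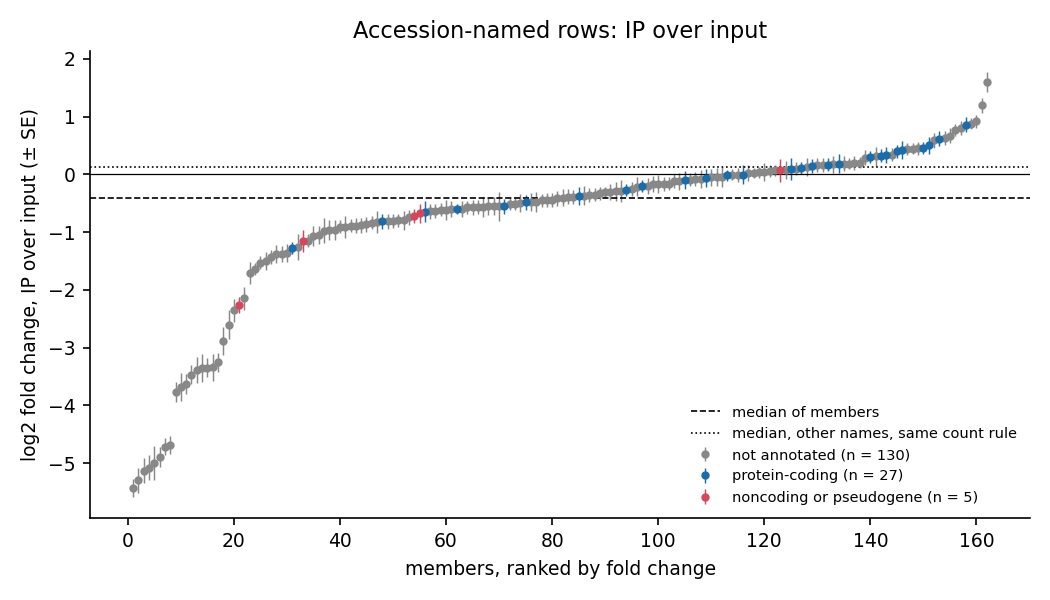
Log2 fold change of IP over input with its standard error for the 162 members, ranked from lowest to highest and coloured by annotation, with the medians of the members (dashed) and of the rows with other names under the same count rule (dotted). The 8 lowest rows lie below -4 and none of them is annotated, whereas the 27 protein-coding members run from -1.28 to 0.86.

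By annotation, the members fell into 3 sets. The 27 protein-coding members had a median log2 fold change of 0.09 and a range of -1.28 to 0.86, with 7 called lower and 8 higher. The 130 unmatched members had a median of -0.49, with 77 called lower and 13 higher, and the 5 annotated as noncoding or pseudogene had a median of -0.72. The background of 22.4% lower and 23.4% higher over all rows applies to these counts too, and nothing is read from them. All 17 members below -3 were unmatched. By the letters of the name, the medians were -0.48 for AK, -0.13 for BC, -0.36 for AB and -0.84 for DQ, and -0.02 for the 21 rows with other letters.

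Among the coding members with a described product, values on both sides of 0 were found. N28178, which RefSeq gives as a synonym of Phf24, a PHD finger protein that binds inhibitory G protein subunits in neurons, stood at 260 and 221 CPM in IP 2 and IP 4, against 160 and 191 CPM in input 2 and input 4. The IP libraries lay above the input libraries, and the row was 1.37-fold higher (SE 0.11). C77370, a synonym of Nexmif, an X-linked gene of neurite extension, stood at 74.2 and 84.7 CPM in IP 2 and IP 4, against 54.9 and 65.5 CPM in input 2 and input 4, with a log2 fold change of 0.40 (SE 0.11). AU040320, whose product serves as a receptor for adeno-associated viruses, stood at 37.3 and 38.3 CPM in IP 2 and IP 4, against 31.0 and 29.4 CPM in input 2 and input 4, a log2 fold change of 0.32 (SE 0.12). AI314180, a synonym of Ecpas, an adaptor of the proteasome, stood at 108 and 116 CPM in IP 2 and IP 4, against 112 and 115 CPM in input 2 and input 4, with overlapping groups and a log2 fold change of -0.02 (SE 0.10). Exons of AU040320 overlap Zmym4 on the opposite strand, and 9 of the 32 matched members overlap a gene on the opposite strand and 5 one on the same strand. The strand setting of the counting is not given in the sources used here, so these values are uncertain to that extent.

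Lower in IP among the coding members was BC005537 (ENSMUSG00000019132.11, chromosome 13, 24801657 to 24816197, plus strand), at 67.1 and 56.8 CPM in IP 2 and IP 4, against 158 and 142 CPM in input 2 and input 4. It was 2.42-fold lower (SE 0.11 on the log2 scale), and its groups did not overlap. AI593442 (ENSMUSG00000078307.3, chromosome 9, 52673042 to 52679780, minus strand), the coding member with the largest count, held 10601 and 11097 counts in IP 2 and IP 4, against 18824 and 17225 counts in input 2 and input 4, 1.52-fold lower (SE 0.09). For 2 coding members, the gene behind the synonym also has a row of its own in the files. AI414108, a synonym of Igsf9b, an adhesion protein of inhibitory synapses, had a log2 fold change of -0.82 (SE 0.12), and the row named Igsf9b had -0.93 (SE 0.15). BC003348, a synonym of Sesn3, a sestrin of the stress response, had -0.20 (SE 0.10), and the row named Sesn3 had -0.10 (SE 0.11). In both pairs the 2 rows differed by about the size of their standard errors, and the files do not say which part of the locus each row covers.

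The annotated noncoding members were lower in IP with 1 exception. DQ267101, whose sequence is given above, held 474 and 727 counts in IP 2 and IP 4, against 3360 and 2881 counts in input 2 and input 4, 4.79-fold lower (SE 0.14). Rian, the gene around it, held 1607 and 2183 counts in IP 2 and IP 4, against 8112 and 7631 counts in input 2 and input 4, with a log2 fold change of -1.93 (SE 0.11) beside -2.26 for DQ267101. The annotated length of DQ267101 is 73 bases, and the extent counted by the authors is not given in the sources used here, so reads of Rian in that row cannot be told apart from the small RNA. Other accession-named rows that GENCODE places within Rian were AF357425 and DQ267102, and the unmatched accessions have no position in the sources used here. AF357425 held 3 and 14 counts in IP 2 and IP 4, against 124 and 107 counts in input 2 and input 4. DQ267102 held 0 and 0 counts in IP 2 and IP 4, against 0 and 1 count in input 2 and input 4.

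The lncRNA R74862 (chromosome 7, 143021784 to 143053686, minus strand), whose exons overlap Cd81 on the opposite strand, held 206 and 246 counts in IP 2 and IP 4, against 544 and 551 counts in input 2 and input 4, 2.22-fold lower (SE 0.18). The lncRNA AI504432 on chromosome 3 stood at 32.5 and 31.0 CPM in IP 2 and IP 4, against 50.7 and 54.0 CPM in input 2 and input 4, 1.65-fold lower (SE 0.11). AI854517, the Mir9-3hg row, stood at 13.0 and 10.5 CPM in IP 2 and IP 4, against 20.6 and 16.9 CPM in input 2 and input 4, 1.60-fold lower (SE 0.17). In these 3 rows the IP libraries lay below the input libraries. The exception was AI854703, a transcribed pseudogene in RefSeq and a coding gene in GENCODE, at 23.1 and 13.7 CPM in IP 2 and IP 4, against 19.6 and 15.4 CPM in input 2 and input 4, with overlapping groups.

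For comparison, a list of 30 noncoding RNAs known by symbol, many of them nuclear, had 26 members tested. Of these 23 were lower in IP, 0 were higher and 3 did not pass, with a median log2 fold change of -2.02 against -0.04 for all rows (edgeR quasi-likelihood test). At an unadjusted p under 0.05 the counts were 24 and 0, and DESeq2 called 23 and 0. Malat1, a lncRNA of nuclear speckles, lay at -3.58 (SE 0.17, adjusted p = 8.09e-12 by edgeR). Meg3, an imprinted lncRNA, lay at -3.12 (SE 0.12, adjusted p = 5.96e-13 by edgeR). The list has 22.4% lower and 23.4% higher as its background. It was chosen with earlier results of these data known, so its counts are a description.

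The rows with the largest input counts included some that were not lower in IP. AK144265 held 35054 and 43764 counts in IP 2 and IP 4, against 37075 and 26422 counts in input 2 and input 4. Its level of 923 and 1012 CPM in IP 2 and IP 4 lay above 816 and 611 CPM in input 2 and input 4, with a log2 fold change of 0.44 (SE 0.11), which was 0.26 without input 4 and 0.67 without input 2. AK018679 averaged 342 ± 16.1 CPM in the IP libraries and 335 ± 18.2 CPM in the input libraries (SD over n = 2 each). AK169831 averaged 308 ± 13.6 CPM in IP and 302 ± 3.12 CPM in input. In AK018679 and AK169831 the difference of the means was below the SD between the IP libraries. With library sizes alone as the scaling, their log2 fold changes were -0.23 each, and AK144265 stayed on the side of IP.

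Most members kept one side across the replicate numbers. The sign of the log2 ratio of IP over input was the same within number 2 and number 4 in 139 of 162 members, with a median difference of 0.16 between the numbers and a largest one of 1.59, in AK140265. The difference exceeded 1 in 8 members. AK021280 differed by number in both groups, at 15.2 and 7.89 CPM in IP 2 and IP 4, against 21.6 and 12.2 CPM in input 2 and input 4. It was named after its values were seen.

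Values near the count rule give its reach. Just inside it were AK083927, AK137423 and AK033069, whose smaller input counts were 502, 511 and 514 and whose log2 fold changes were -0.98, -0.29 and -0.83. Just outside were AK034568, BC068281 and AK051383, with smaller input counts of 499, 491 and 478 and log2 fold changes of -0.49, -0.03 and -1.24. The ranges of the fold changes on the inner and outer side of the rule overlapped.

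The libraries ranged from 39750468 to 47567384 gene counts. Cbln1, which drives the tag, was higher in IP, with 3.03 on the log2 scale (SE 0.17, adjusted p = 1.39e-10 by edgeR). The row named Rpl10a had -1.21 (SE 0.24), at low means of 3.01 CPM in IP and 6.98 CPM in input. Whether that row also counts transcripts of the tagged transgene is not given in the sources used here. Of 6 markers each, 5 and 0 neuronal, 5 and 0 cortical excitatory, 0 and 3 inhibitory, 3 and 1 astrocyte, 2 and 4 oligodendrocyte and 1 and 2 microglial markers were called higher and lower in IP by the edgeR test. The background over all rows tested was 23.4% higher and 22.4% lower. These marker lists too were chosen with earlier results of these data known. At an unadjusted p under 0.05, the inhibitory markers had 1 higher and 4 lower and the astrocyte markers 3 higher and 2 lower, and the neuronal and excitatory markers had 0 lower at that p. After adjustment, DESeq2 gave the same counts as edgeR for these 6 lists. Of the 6 endothelial markers none passed, also at an unadjusted p and with DESeq2, and all were at low levels, summing to 6.74 and 6.78 CPM in IP 2 and IP 4 and 9.20 and 6.91 CPM in input 2 and input 4. The contrast sets captured RNA against total RNA of the homogenate, so these calls measure neither the number of cells of a type nor their RNA content. Why a marker was higher or lower in IP was not tested. For the unmatched members, no cell type is recorded in the sources used here.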

How the data were processed

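The deposited files hold whole-number read counts per named feature, 1 file per library, not normalised. STAR 2.0.0e, HTSeq and build mm10 were used per the submitters' processing notes; for the annotation, strand setting and library kit, nothing is given in the sources used here. Summary lines and a line named unknown (0, 0, 2 and 2 counts) were left out. Reads outside annotated features were 7.31%, 7.54%, 14.9% and 13.5% of records in IP 2, IP 4, input 2 and input 4. Ambiguous reads, which fit more than 1 feature and are in no row, were 1.54%, 1.54%, 5.07% and 5.09% in the same order. Values of rows that overlap other genes are uncertain to that extent. Reads with several alignments are outside the row counts, so values of rows with close copies are uncertain.

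All 32531 rows were fitted together with edgeR 4.0.16 in R 4.3.3: filterByExpr with its settings of 10 for the count and 15 for the total kept 16600 rows, libraries were normalised by TMM, and a two-sided quasi-likelihood test with no block was run. All 162 members were among the rows kept. The biological coefficient of variation was 12.5%, with 2 residual degrees of freedom. The method was checked on simulated data. Replicates differed by a chi-square of 22.5 (IP) and 15.2 (input) per degree of freedom, so none was a copy.

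Named members were the 10 lowest and 10 highest fold changes, the 10 with the largest input level, the 3 with the largest ratio between IP libraries, 3 just inside and 3 outside the rule, and annotated members. Members and lists were chosen with earlier results of these data known. Alternatives were DESeq2 1.42.0, other scalings, filters and member rules, the replicate number as a block, and fits without 1 library or without Rn45s. Annotation came from GENCODE vM21 (GRCm38, also called mm10) and RefSeq (GRCm38.p6). Figures were drawn with matplotlib 3.10.9.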

Additional observations from a re-analysis of the deposited data

Results flagged for a closer look

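The share of records without a unique alignment, which none of the comparisons used, was above the input level in both IP libraries: 37.0% and 38.0% in IP 2 and IP 4, against 32.1% and 30.7% in input 2 and input 4. Such reads are not in the counts of any row.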

How the results depend on the processing

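The members' median log2 fold change of -0.41 was -0.67 with library sizes alone, when the median of all rows went to -0.29, and it was -0.39 without a filter on low counts and -0.47 with a stricter one. With members of at least 200 counts in each input it was -0.59, with 1000 it was -0.43, with a mean of 500 over the 4 libraries -0.29, and with members chosen on input 2 alone and fitted without it -0.39. Leaving out 1 library gave -0.40 to -0.38. The 88 members called lower became 168 of 287 (58.5%) and 56 of 96 (58.3%) with the rules of 200 and 1000 counts, which take other numbers of rows, and 29 when tested against a log2 fold change of 1, where the background was 4.07%. The 21 called higher became 10 with library sizes alone and 1 against a log2 fold change of 1, where the background was 1.04%. Leaving out 1 library gave 80 to 83 lower and 18 to 20 higher. Over all rows, library sizes alone gave 2151 higher and 5910 lower, against 3886 and 3719. Leaving out 1 library gave 3323 to 3720 higher and 2670 to 3421 lower. The list of noncoding RNAs kept 23 to 25 lower and 0 higher under every alternative run. Of the log2 fold changes of 27 named members, 13 moved beyond the replicate spread with library sizes alone and 2 with the stricter filter, and no called one changed sign. With the replicate number as a block, 24 members were called higher and 93 lower, and 4314 and 4037 of all rows. By the labels, libraries with the same number share only that number, and 2 pairs do not show a pairing. Their deviations correlated at 0.19 across 10681 rows of at least 5 CPM, and Xist was higher under number 4 in both groups. With 2 libraries a group, differences near the standard errors given were not detectable.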
